A study of Mus musculus with 16 samples.

Results

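The proteases that remodel the extracellular matrix, and their inhibitors, were examined in primary mammary tumors. The members were all genes of the expression table with a mouse symbol of the form *Mmp*, *Adamts* or *Timp* followed by a number, with or without a letter after an *Mmp* number. They numbered 40 of the 23609 genes in the table, of which 19 were matrix metalloproteinases (MMPs), 17 were ADAMTS proteases and 4 were tissue inhibitors of metalloproteinases (TIMPs). The rule also covers *Adamts13*, *Adamts19*, *Mmp1a*, *Mmp1b*, *Mmp20* and *Mmp27*, which were not analysed here.

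The tumors arose in mice that carry MMTV-PyMT, the polyoma middle T antigen driven by the mammary tumor virus promoter, and all animals of both groups carry this transgene. Gene trap tumors came from animals that were also Resf1 +/-. The trap, carried by a lentivirus, sits in exon 1 of *Resf1* and cuts the transcript short while EGFP-cre is made. It comes from a line of C57BL/6 origin and is present in every cell of the animal and not only in the tumor. The authors describe crossing this line with FVB/MMTV-PyMT mice, so both groups were hybrids of C57BL/6 and FVB. Wildtype tumors came from MMTV-PyMT littermates without the trap, and neither group received a treatment. The labels give no age at collection. Total RNA was sequenced from 8 tumors per group by the labels, and the values of 5 wildtype and 5 gene trap tumors were used. Nothing states that each tumor came from a separate animal, so p-values measure only the spread between these tumors.

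MMPs are zinc-dependent endopeptidases that are made as inactive proenzymes and cleave collagens, gelatin and other matrix proteins. ADAMTS proteases carry thrombospondin repeats and cleave proteoglycans, procollagen propeptides and microfibril proteins. TIMPs bind the active site of MMPs and, in the case of TIMP3, also that of several ADAMTS and ADAM proteases. In mammary tumors much of this protease activity comes from fibroblasts, macrophages and neutrophils in the stroma.

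Several secreted MMPs lie next to each other on chromosome 9, in the order *Mmp13*, *Mmp12*, *Mmp1b*, *Mmp3*, *Mmp1a*, *Mmp10*, *Mmp8*, *Mmp27*, *Mmp20* and *Mmp7*. Promoter windows from 250 bases before to 50 bases after the start of the gene were found for 27 of the 40 members (30 windows, RefSeq, GRCm38.p6). The sequence TGANTCA, to which AP-1 factors such as FOS and JUN bind and which reads the same on both strands, was searched for in them. It was found in 5 of the 30 windows (16.7%), against 7.81% of 32851 promoter windows of all genes. All 5 belong to the 6 measured genes of the chromosome 9 cluster, and they are given here because no other member window held the motif. The window of *Mmp8*, the remaining measured gene of the cluster, held none. Each is on the plus strand, is written 5′ to 3′ and has the motif in capitals.

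*Mmp13*, chr9:7272468-7272497, motif 35 bases upstream of the start: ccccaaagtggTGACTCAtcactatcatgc
*Mmp12*, chr9:7347319-7347348, motif 44 bases upstream: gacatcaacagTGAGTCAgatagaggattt
*Mmp3*, chr9:7445765-7445794, motif 46 bases upstream: ggaagcaattaTGAGTCAgttttcgggtga
*Mmp10*, chr9:7502268-7502297, motif 63 bases upstream: tagcacccatgTGAGTCAtgcttagtgacc
*Mmp7*, chr9:7692016-7692045, motif 63 bases upstream: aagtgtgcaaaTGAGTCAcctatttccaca

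The sequence TATAAA, searched on both strands, was found in 8 of the 30 member windows (26.7%) and in 13.6% of all windows. These 8 were the windows of *Adamts1*, *Mmp21* and all 6 measured genes of the cluster, *Mmp8* included. A match describes these letters only and does not show that a factor binds there.

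The unit of the values is an estimated count per gene that the authors had normalized between tumors before deposition, so sequencing depth is unknown. All genes of a tumor summed to between 31995078 and 42153593. *Resf1*, the trapped gene, was at 4215, 4397, 3881, 4487 and 3517 in wildtype replicates 1 to 5. In gene trap replicates 1 to 5 it was at 4029, 3066, 3686, 3392 and 3409. These ranges overlapped, but gene trap replicates 2, 4 and 5 were below every wildtype tumor. In the limma test described below its log2 fold change was -0.22 (95% confidence interval -0.42 to -0.02). The unadjusted limma p was 0.0313 and the adjusted p was 0.9997. By exact permutation of the tumors, two-sided, p was 0.0635. The luminal keratins and *Epcam*, which mark the epithelium of these tumors, were among the luminal markers that summed to between 87526 and 112590 in wildtype and between 89145 and 117647 in gene trap tumors. Gene trap replicate 2 stood apart, with 926 genes more than 2-fold below every other tumor against 11 to 53 in each of the others. None of the tested members was among them, with 0 of 37 there. Another 230 genes were more than 2-fold above every other tumor in gene trap replicate 2, against 4 to 55 in each of the others. Of the 37 members, 8 had their lowest value in gene trap replicate 2, 9 in wildtype replicate 4 and 6 in gene trap replicate 5. Gene trap replicate 1 had the highest value of 10 members. In bulk tissue fewer cells of a type and less RNA per cell cannot be told apart.

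The comparison of gene trap with wildtype tumors asked whether the *Resf1* gene trap goes with another level of matrix protease or inhibitor transcripts. Values were tested as log2(value + 1) with limma, over the 21034 genes with a mean of at least 10, which makes the fold changes of low genes smaller than they are. Of the members, 37 were tested, and *Mmp7*, *Mmp10* and *Mmp21* were below that mean. No member passed an adjusted p of 0.05 (0 of 37; limma, Benjamini-Hochberg over all genes), and no gene of the table did (0%), the smallest adjusted p being 0.9997. At an unadjusted p under 0.05 there were 2 members (5.41% of 37), *Timp3* and *Adamts17*, both with the lower mean in gene trap tumors. The same limit was passed by 2.28% of all genes, 0.956% with the lower and 1.32% with the higher mean in gene trap tumors. The 2 groups did not separate completely for any member (0 of 37), while they did for 0.528% of all genes.

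The members' log2 fold changes lay between -0.45 and 0.60, with 20 below and 17 above 0, where 48.6% of all genes were below 0. Their median was -0.04, beside a median of 0.005 and quartiles of -0.09 and 0.10 for all genes. By family the median was -0.05 for the 16 tested MMPs, 0.01 for the 17 ADAMTS and -0.19 for the 4 TIMPs. The 95% confidence interval lay within 1 log2 unit of 0 on both sides for 31 of the 37. The members varied more between tumors than most genes: the SD of their log2 values over the 10 tumors had a median of 0.37, against 0.25 for all genes, and 30 of the 37 were above 0.25.

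**Figure D1:**
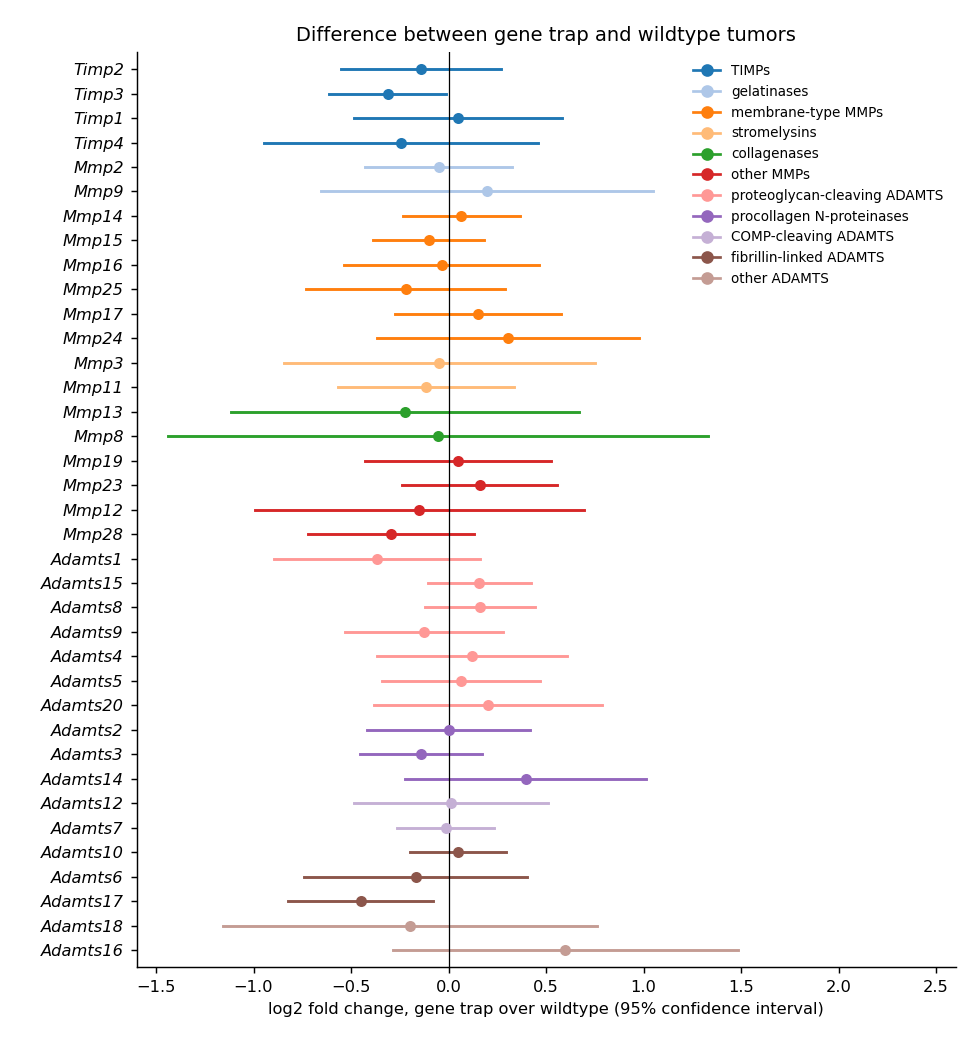
Log2 fold change of gene trap over wildtype tumors for each of the 37 tested members, with the 95% confidence interval of limma as bars (5 tumors per group). The intervals of *Timp3* and *Adamts17* lie below 0 before adjustment, the remaining 35 span 0, and *Mmp8* has the widest interval.

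Levels were compared between genes only per kilobase of transcript, as the mean over the 10 tumors. On that scale the highest members were *Timp2* at 799, *Timp3* at 676, *Mmp2* at 629, *Mmp14* at 602, *Mmp15* at 476, *Adamts10* at 404 and *Timp1* at 385. The lowest were *Mmp8* at 4.3, *Mmp21* at 3.19 and *Adamts20* at 2.45. The summed level per kilobase was divided into 41.6% for MMPs, 26.1% for ADAMTS and 32.3% for TIMPs. In each family a few genes made up most of the level, with the top 3 holding 71.0% of the MMP, 52.4% of the ADAMTS and 99.6% of the TIMP level. In this order the range over the tumors of each of the highest 7 genes overlapped that of the next one, as the plot of levels shows.

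**Figure D2:**
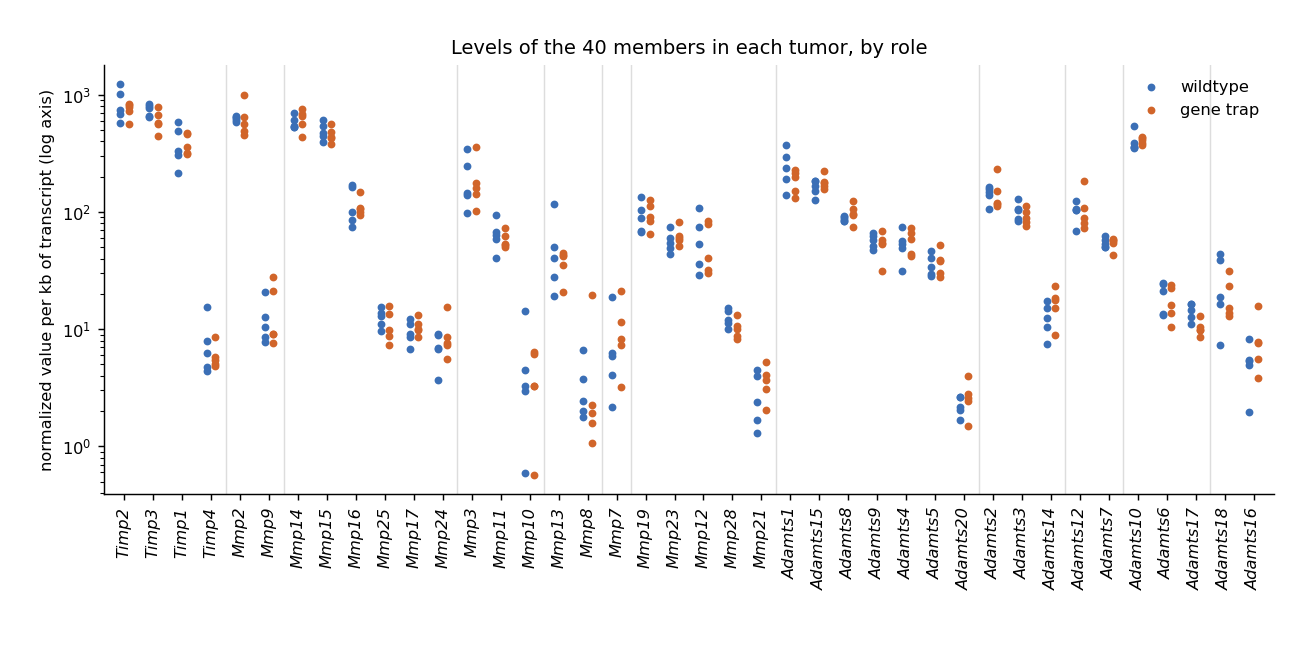
Level per kilobase of transcript (log axis) of the 40 members in each of the 10 tumors, grouped by role and ordered by mean within each role, with wildtype and gene trap tumors in different colors. Mean levels run from 799 for *Timp2* to 2.45 for *Adamts20*, and the colors are mixed for nearly every gene.

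Of the inhibitors, *Timp3* (ENSMUSG00000020044), which is held in the matrix and inhibits ADAM17 and aggrecan-cleaving ADAMTS proteases as well as MMPs, had the smallest p. Its value was 3066, 3966, 3126, 3812 and 3619 in wildtype replicates 1 to 5 and 3746, 2646, 3160.4, 2109 and 2690.2 in gene trap replicates 1 to 5. Gene trap replicates 2, 4 and 5 were below every wildtype tumor, whereas gene trap replicates 1 and 3 lay within the wildtype range. The means were 3517 ± 405 (SD, n = 5) and 2870.3 ± 615 (SD, n = 5). The log2 fold change was -0.31 (95% confidence interval -0.61 to -0.01), with an unadjusted limma p of 0.0434 and an adjusted p of 0.9997. By exact permutation of the tumors, two-sided, p was 0.0952, and 5 against 5 tumors cannot go below 0.00794. Leaving out single tumors put the log2 fold change between -0.41 and -0.21, and the unadjusted p was above 0.05 without gene trap replicate 2, 4 or 5 or wildtype replicate 2, 4 or 5 (0.0752 to 0.114).

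*Timp3* overlaps *Syn3* on the opposite strand, and the exons of the pair share 1733 bases. Whether the counting used strand is not stated, so reads of the pair may not be fully separated. *Syn3*, a synapsin of nerve terminals, had a level per kilobase of 41.7, where *Timp3* had 676, and the part of shared reads was not tested. *Timp4* shares 90 exon bases with *Syn2*, and *Timp1* overlaps *Syn1* with 0 shared exon bases.

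*Timp2* (ENSMUSG00000017466), which inhibits MMPs and also joins MMP14 in the activation of proMMP2, was at 2552, 4541, 2760.1, 3755 and 2130.0 in wildtype and at 2944, 2680.0, 3111, 2105 and 3056 in gene trap tumors. Wildtype replicates 2 and 4 were the highest, and the groups overlapped. The log2 fold change was -0.14 (95% confidence interval -0.55 to 0.27). *Timp1* (ENSMUSG00000001131), an inducible inhibitor with a broad range of MMP targets, was at 271, 517, 294, 192 and 436 in wildtype and at 417, 406, 314, 274 and 282 in gene trap tumors. All gene trap values fell inside the wildtype range, and the log2 fold change was 0.05 (-0.48 to 0.58). *Timp4* (ENSMUSG00000030317), which has a more restricted expression, was at 24 to 84.3 in wildtype tumors, where replicate 5 was the highest, and at 26.7 to 47.5 in gene trap tumors. Its log2 fold change was -0.24 (-0.95 to 0.46).

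**Figure D3:**
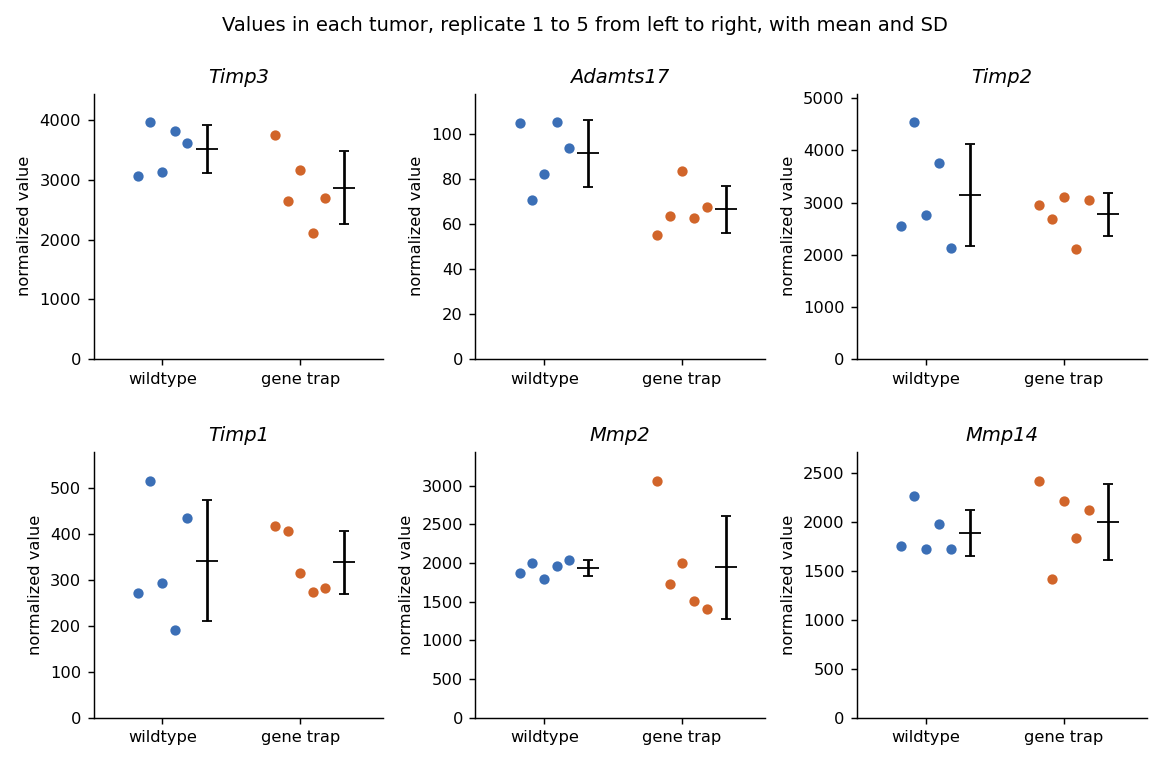
Deposited value of selected members in each tumor (points, replicates in order from left to right), with group means and SD (n = 5). *Adamts17* has 4 gene trap tumors below the lowest wildtype tumor and *Timp3* has 3, while all gene trap values of *Timp1* lie within the wildtype range and *Mmp2* is highest in gene trap replicate 1.

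The gelatinases MMP2 and MMP9 cleave denatured collagen and basement membrane collagen. *Mmp2* (ENSMUSG00000031740) was at 1868, 1998, 1789, 1963 and 2042 in wildtype and at 3066, 1729, 1999, 1505 and 1409 in gene trap tumors. The wildtype tumors lay close together, gene trap replicate 1 was above all of them and gene trap replicates 2, 4 and 5 were below. The log2 fold change was -0.05 (95% confidence interval -0.43 to 0.33), and it was -0.23 without gene trap replicate 1. *Mmp9* was at 24.8 to 66.4 in wildtype and 24 to 89.4 in gene trap tumors, with a log2 fold change of 0.20 (-0.66 to 1.05).

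Membrane-type MMPs act at the cell surface, where MMP14 cleaves collagen and activates proMMP2. *Mmp14* (ENSMUSG00000000957) was at 1761, 2265, 1730.2, 1986 and 1725 in wildtype and at 2428, 1415, 2219.6, 1838 and 2126 in gene trap tumors, and the highest and lowest tumor were both gene trap tumors. Its log2 fold change was 0.07 (95% confidence interval -0.23 to 0.37). *Mmp15*, a second transmembrane enzyme, was at 2019 to 3154 in wildtype and 1942 to 2890.2 in gene trap tumors, with a log2 fold change of -0.10 (-0.39 to 0.18). *Mmp16*, the third in level of these, was at 374 to 858 and 475 to 746, with a log2 fold change of -0.04 (-0.53 to 0.46). Of the 6 membrane-type genes 3 had the lower and 3 the higher mean log2 value in gene trap tumors, and none passed an unadjusted p of 0.05 (0 of 6). The widest interval was that of *Mmp24*, a low gene at 15.9 to 39.3 in wildtype and 24 to 67.1 in gene trap tumors, with a log2 fold change of 0.31 (-0.37 to 0.98). It was 0.09 without gene trap replicate 2, the tumor that stood apart, and 0.10 without wildtype replicate 5. It shares 637 exon bases with a gene on the opposite strand. The GPI-anchored *Mmp17* and *Mmp25* had log2 fold changes of 0.15 and -0.22.

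The chromosome 9 cluster holds the collagenases *Mmp13* and *Mmp8*, the stromelysins *Mmp3* and *Mmp10*, the macrophage elastase *Mmp12* and matrilysin, *Mmp7*. Per kilobase, *Mmp3* was at 192, *Mmp12* at 56.6 and *Mmp13* at 44.3, and *Mmp7*, *Mmp10* and *Mmp8* were below 10. *Mmp3* (ENSMUSG00000043613), which cleaves matrix glycoproteins and activates other proMMPs, was at 249, 263, 448, 177 and 624 in wildtype and at 640.2, 321, 288, 256 and 182 in gene trap tumors. Gene trap replicate 1 and wildtype replicates 5 and 3 were the highest of all tumors, and the log2 fold change was -0.05 (95% confidence interval -0.84 to 0.75). *Mmp13* (ENSMUSG00000050578), which cleaves fibrillar collagen, was at 136, 316, 51.1, 109 and 75 in wildtype and at 94.8, 56.1, 115, 113 and 118 in gene trap tumors, with wildtype replicate 2 far above the rest. Its log2 fold change was -0.22 (-1.12 to 0.67). *Mmp12* (ENSMUSG00000049723) was at 131 to 484 in wildtype and 136 to 372 in gene trap tumors, with a log2 fold change of -0.15 (-0.99 to 0.70).

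*Mmp8* (ENSMUSG00000005800), the collagenase stored by neutrophils, was at 9.13, 16.2, 4.83, 4.31 and 5.91 in wildtype and at 4.70, 2.59, 47.3, 5.47 and 3.85 in gene trap tumors. It reached the mean needed for testing only through gene trap replicate 3, and its SD on the log2 scale over the 10 tumors, 1.10, was the largest of the tested members. The same tumor had the highest *Mmp9* of all tumors, at 89.4, and the highest neutrophil marker score, at 1.57, with *S100a9* at 565, *Csf3r* at 177 and *Cxcr2* at 80.7, each the highest of all tumors. The most abundant of the markers, *S100a8*, was at 632 there but at 1962 in gene trap replicate 2, the tumor with the lowest *Mmp8*. Of the 8 neutrophil markers 4 were tested, and the sum of these was 316 to 984 in wildtype tumors, 1455 in gene trap replicate 3, 2084 in gene trap replicate 2 and 348 to 492 in the other gene trap tumors, so the sum did not follow *Mmp8*. The T cell marker score was also highest in gene trap replicate 3, at 1.86. The part of these cells in the *Mmp8* value was not tested. *Mmp10*, at 0.992 to 24.7, and *Mmp7*, at 2.32 to 22.7, were not tested, and their highest values were in wildtype replicate 2 and gene trap replicate 4.

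**Figure D4:**
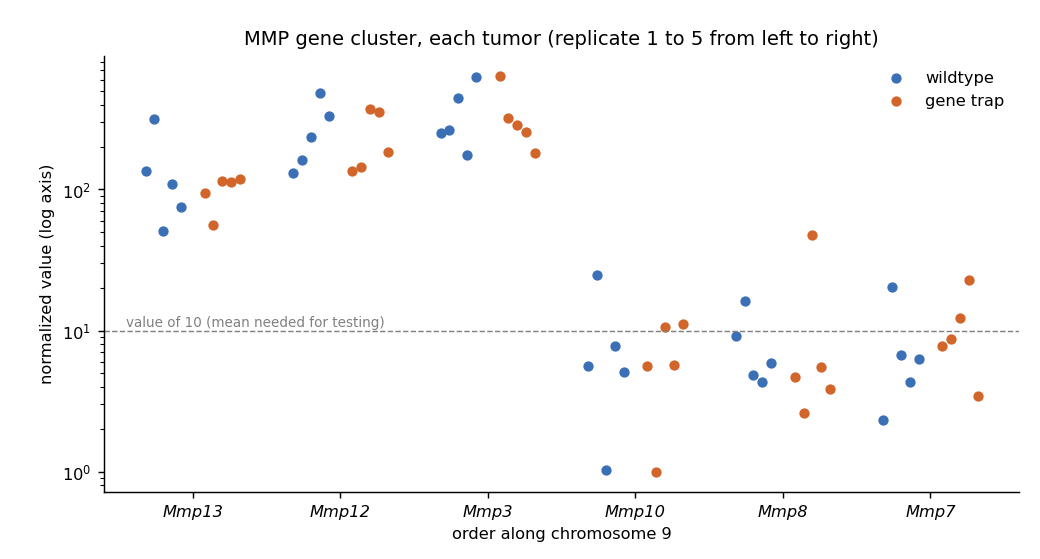
Deposited values (log axis) of the 6 measured genes of the chromosome 9 cluster in the 10 tumors, in their order along the chromosome, with the value of 10 that a gene's mean had to reach for testing drawn as a line. *Mmp13*, *Mmp12* and *Mmp3* lie above the line in every tumor, and *Mmp8* lies above it in 2 tumors, with 47.3 in gene trap replicate 3.

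The remaining MMPs were of middle or low level. *Mmp11*, a stromelysin known from fibroblasts around carcinomas, had a log2 fold change of -0.12 and *Mmp21* was not tested at 3.50 to 13.9. *Mmp28* (ENSMUSG00000020682), epilysin, was at 38.7, 34.7, 52.0, 41.4 and 49.0 in wildtype and at 45.4, 36.4, 34.8, 30.2 and 28.5 in gene trap tumors. Gene trap replicates 4 and 5 were below every wildtype tumor, and the log2 fold change was -0.30 (95% confidence interval -0.72 to 0.13), the lowest of the MMPs. *Mmp28* shares 466 exon bases with a gene on the opposite strand. *Mmp19* was at 229 to 461 in wildtype and 221 to 427 in gene trap tumors, with a log2 fold change of 0.05 (-0.43 to 0.52), and *Mmp23* was at 62.4 to 106 and 73.1 to 117, with a log2 fold change of 0.16 (-0.24 to 0.56).

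Among ADAMTS genes, *Adamts17* (ENSMUSG00000058145), one of those linked to fibrillin microfibrils, had the smallest p of all members. It was at 105, 70.9, 82.2, 105 and 94.0 in wildtype and at 55.1, 63.6, 83.4, 62.9 and 67.6 in gene trap tumors. Gene trap replicate 3 alone reached the wildtype range. The means were 91.4 ± 14.9 and 66.5 ± 10.5 (SD, n = 5 each), the log2 fold change was -0.45 (95% confidence interval -0.82 to -0.08), the unadjusted limma p was 0.0215 and the adjusted p was 0.9997. The exact two-sided permutation test gave p = 0.0238. Leaving out each tumor gave log2 fold changes of -0.54 to -0.39, with an unadjusted p just above 0.05 without gene trap replicate 1 or wildtype replicate 1 or 4 (0.0533 to 0.0555). Of the other fibrillin-linked genes, *Adamts10* was at 1463 to 2215 in wildtype and 1551 to 1802 in gene trap tumors, with a log2 fold change of 0.05 (-0.20 to 0.29), and *Adamts6* had a log2 fold change of -0.17.

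The 7 proteoglycan-cleaving genes cut versican and aggrecan. The fold change was below 0 for 2 of them and above 0 for 5, none passed an unadjusted p of 0.05 (0 of 7), and their median log2 fold change was 0.12. *Adamts1* (ENSMUSG00000022893) was at 927, 1428, 683, 1819 and 1155 in wildtype and at 966, 641, 1053, 735 and 1114 in gene trap tumors. Wildtype replicates 2 and 4 were the highest, the groups overlapped, and the log2 fold change was -0.37 (95% confidence interval -0.89 to 0.16). It was -0.20 without wildtype replicate 4 and -0.55 without wildtype replicate 3. *Adamts15* was at 751 to 1088 and 931 to 1315, with a log2 fold change of 0.16 (-0.10 to 0.42). *Adamts8* (ENSMUSG00000031994) was at 305, 305, 317, 338 and 326 in wildtype and at 389, 352, 342, 455 and 268 in gene trap tumors. Gene trap replicates 1 to 4 were above every wildtype tumor and replicate 5 was below every one, and the log2 fold change was 0.16 (-0.12 to 0.44), with 0.07 without gene trap replicate 4 and 0.26 without gene trap replicate 5. *Adamts4*, *Adamts5*, *Adamts9* and *Adamts20* had log2 fold changes of 0.12, 0.06, -0.13 and 0.20.

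*Adamts2*, *Adamts3* and *Adamts14* are known as procollagen N-proteinases, which remove the amino-terminal propeptide before fibrils form. *Adamts2* was at 774 to 1191 in wildtype and 821 to 1702 in gene trap tumors, with a log2 fold change of 0.00087 (95% confidence interval -0.42 to 0.42). *Adamts3* was at 329 to 511 and 301 to 445, with a log2 fold change of -0.14 (-0.45 to 0.17). *Adamts14* was at 38.4 to 91.0 and 46.6 to 121, and 3 gene trap tumors were above the highest wildtype tumor, with a log2 fold change of 0.40 (-0.22 to 1.01). It was 0.26 without gene trap replicate 2, 0.22 without wildtype replicate 4 and 0.60 without gene trap replicate 5. Of the proteases that cleave cartilage oligomeric matrix protein, *Adamts12* was at 596 to 1055 in wildtype and 628 to 1563 in gene trap tumors, with a log2 fold change of 0.01 (-0.48 to 0.51), and *Adamts7* had -0.02. *Adamts16* and *Adamts18* varied the most of this family. *Adamts16* was at 25, 42.1, 10, 27.8 and 27.2 in wildtype and at 79.8, 28.4, 39.8, 19.5 and 39.2 in gene trap tumors, and its log2 fold change of 0.60 (-0.28 to 1.48) was the largest of all members but was 0.33 without gene trap replicate 1 and 0.30 without wildtype replicate 3. *Adamts18* was at 41.7 to 249.6 and 72.7 to 176, with a log2 fold change of -0.20 (-1.16 to 0.76).

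The summed MMP level per kilobase was divided by the summed TIMP level in each tumor. This ratio was 1.35, 0.966, 1.35, 1.22 and 1.32 in wildtype and 1.45, 1.26, 1.32, 1.64 and 1.23 in gene trap tumors. The means were 1.24 ± 0.16 and 1.38 ± 0.17 (SD, n = 5 each). The groups overlapped, and the difference in this ratio was not tested. The lowest ratio, in wildtype replicate 2, came with the highest summed TIMP level, 2654, and the highest ratio, in gene trap replicate 4, with the lowest, 1329. Summed MMP levels were 2419 ± 129 in wildtype and 2393 ± 366 in gene trap tumors, and summed TIMP levels 1988 ± 399 and 1747 ± 270.

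Cell type markers were read in the same tumors. The 8 basal and myoepithelial markers all had the lower mean in gene trap tumors, 2 of them, *Krt17* and *Myh11*, at an unadjusted p under 0.05, and their median log2 fold change was -0.39. They summed to 7452 to 10277 in wildtype and 5537 to 7455 in gene trap tumors. The 8 endothelial markers had a median of -0.08, with sums of 3110 to 5481 and 2829.7 to 5101, and the 4 tested adipocyte markers a median of -0.54, with sums of 2275 to 8087 and 1392 to 4931. In the other direction, 8 of the 10 fibroblast markers were above 0, with a median log2 fold change of 0.08. The 4 tested neutrophil markers had a median of 0.32. The basal marker score was lowest in gene trap replicate 4, at -1.04, the tumor with the lowest *Timp3*. It was -0.20 in gene trap replicate 1, the tumor with the lowest *Adamts17*. The part of these cells in the values of *Timp3* and *Adamts17* was not tested.

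Because stromal cells are a known source of these proteases, each tested member was set against a fibroblast marker score, the mean z score over the 10 tumors of 10 markers that include *Pdgfra*, *Lum* and *Fap*. The score was -0.46, -0.49, 0.49, -1.14 and 1.16 in wildtype and 1.53, -0.17, -0.23, -0.27 and -0.41 in gene trap tumors, so wildtype replicate 5 and gene trap replicate 1 were the highest. *Mmp3* had the closest relation. Its slope on the score was 0.77 log2 units per unit of score (standard error 0.08), with an adjusted p of 0.00262 (limma over all 21034 genes, Benjamini-Hochberg), and it was the only one of the 37 members to pass. The same limit was passed by 73 genes in all (0.347%), and the 10 markers of the score were among the genes fitted. Pearson's r of *Mmp3* with the score was 0.96 and Spearman's rho 0.92 (n = 10 tumors; permutation test, p = 6.0e-05 and p = 0.00057). Without wildtype replicate 5 and gene trap replicate 1, the tumors farthest from the median score, r was 0.88 (n = 8, exact permutation p = 0.00424), but the limma fit over all genes without them gave *Mmp3* an adjusted p of 0.9997. *Mmp3* also did not pass in that fit with ranks in place of values (0 genes called) or with a score of *Pdgfra*, *Pdgfrb* and *Lum* only.

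*Adamts12*, *Mmp19* and *Mmp23* had the next smallest p, with adjusted p of 0.103, 0.104 and 0.335 in the same limma fit. Their r was 0.82, 0.85 and 0.85 and their rho 0.56, 0.83 and 0.65. Permutation p for r was 0.00292, 0.00137 and 0.00223, and for rho 0.0951, 0.00472 and 0.0489, for these 3 of the 37 relations computed. Without the same pair of tumors r was 0.47 for *Adamts12*, 0.69 for *Mmp19* and 0.49 for *Mmp23* (exact permutation p of 0.268, 0.0475 and 0.220, n = 8), so the relations of *Adamts12* and *Mmp23* rested on those tumors. Unadjusted, 9 of the 37 members had a p under 0.05 for the slope, against 9.47% of all genes, with the markers of the score included. The slope was negative for 2 of the 9, the membrane-type *Mmp16* (-0.31, limma adjusted p = 0.413) and *Mmp15* (-0.18, limma adjusted p = 0.439), and positive for the other 7. Wildtype replicate 5 and gene trap replicate 1 were then left out. For *Mmp16* r was -0.76 and for *Mmp15* -0.13 (exact permutation p of 0.00811 and 0.754, n = 8). For *Adamts1*, *Adamts14* and *Timp4* it was -0.81, 0.73 and 0.70 (exact permutation p of 0.00784, 0.0312 and 0.0428). These p-values are unadjusted. Over all 10 tumors the r of the members had a median of 0.21 and was above 0 for 23 of the 37, where 49.4% of all genes were above 0. The exons of *Mmp19* share 789 bases with *Tmem198b* on the opposite strand, which was at 291 to 454. The macrophage marker score was also high in gene trap replicate 1, at 0.82, and in wildtype replicates 3 and 5, at 0.90 and 1.22, and its part in the relation of *Mmp3* was not tested.

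**Figure D5:**
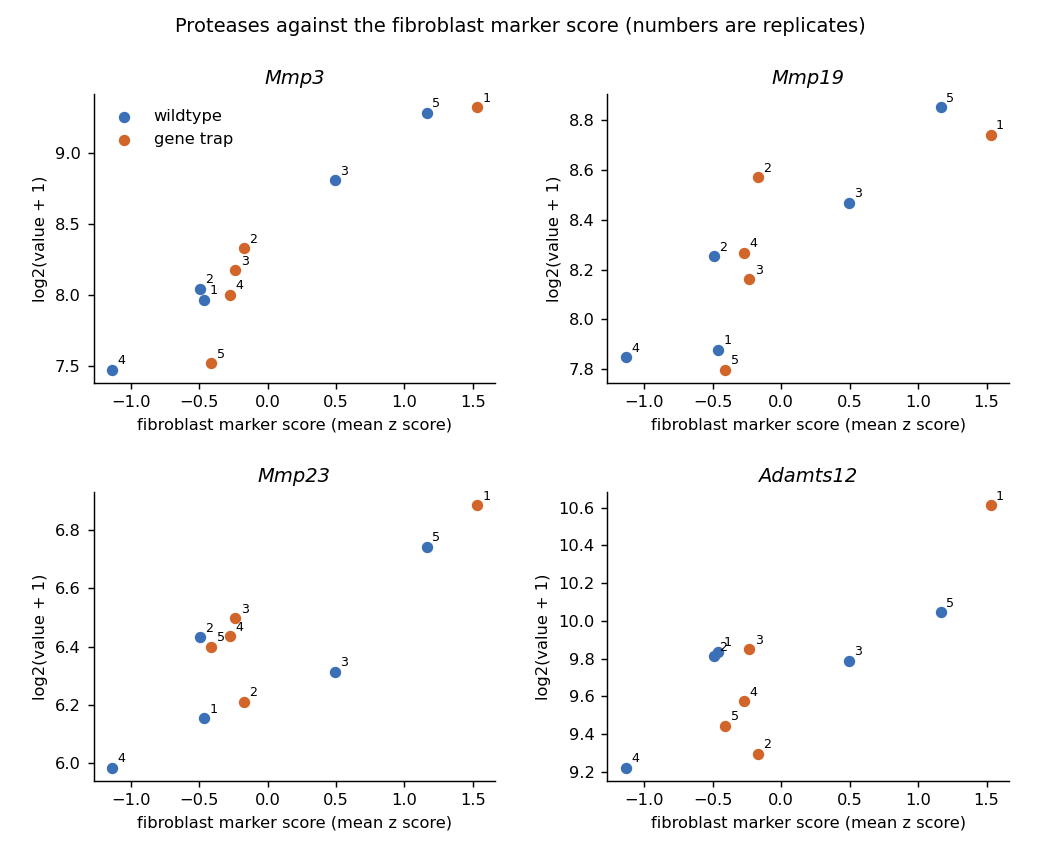
Log2(value + 1) of *Mmp3*, *Mmp19*, *Mmp23* and *Adamts12* against the fibroblast marker score (mean z score) in the 10 tumors, colored by group and numbered by replicate. *Mmp3* follows the score over its whole range, from wildtype replicate 4 to gene trap replicate 1, and the upper end of the other plots is set by wildtype replicate 5 and gene trap replicate 1.

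Other genes of the pathway were counted from fixed lists. The lists held ADAMTS-like proteins, activators and inducers, other inhibitors and clearance receptors, ADAM proteases, and matrix substrates. Of their 44 genes 42 were tested, and none had an unadjusted p under 0.05 (0 of 42). Of the log2 fold changes 25 were below and 17 above 0, with a median of -0.02. Of the 7 ADAMTS-like proteins, which resemble ADAMTS but lack the protease domain, 6 were below 0. *Adamtsl2* had the smallest p of them, at 398 ± 52.6 in wildtype and 329.8 ± 49.6 in gene trap tumors (SD, n = 5), with a log2 fold change of -0.27 (95% confidence interval -0.56 to 0.01), and *Papln* followed with -0.12. Of the 9 tested activators and inducers 7 were below 0, and the smallest p were those of *Serpine2*, an inhibitor of plasminogen activation, at -0.14 (-0.37 to 0.09), and *Furin*, which activates membrane-type MMPs, at 0.21 (-0.18 to 0.61).

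*Reck*, a membrane-anchored inhibitor of MMPs, was at 253.5, 289.6, 253.1, 369 and 289.6 in wildtype and at 281, 189.5, 263, 212 and 237 in gene trap tumors. Gene trap replicates 2, 4 and 5 were below every wildtype tumor. The same tumors were below for *Timp3* and for the trapped gene *Resf1*. They were also below for the protease *Mmp2*, for *Lrp1* and *Adamtsl1*, and for the basal markers *Myh11* and *Acta2*. The log2 fold change of *Reck* was -0.30 (95% confidence interval -0.61 to 0.01). *A2m*, a secreted inhibitor of many proteases, had a log2 fold change of 0.65 (-0.13 to 1.44). In the list of other inhibitors and clearance receptors 3 of 6 were below 0. The 8 ADAM proteases were divided into 4 below and 4 above 0, with *Adam15* at 0.11 (-0.12 to 0.34) and *Adam12* at 0.18 (-0.28 to 0.64). Of the 12 matrix substrates 5 were below 0, with *Col4a1*, of the basement membrane, at -0.17 (-0.51 to 0.17) and the fibrillar *Col1a2* at 0.23 (-0.28 to 0.74).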

How the data were processed

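RNA was isolated with Trizol and libraries were made with TruSeq Stranded Total RNA. The submitters' processing notes name STAR (2.7.8a), Partek, DESeq2 and mm39; the counter and its strand setting are not given in the sources used here. The authors deposited 1 table of a normalized signal, estimated counts per gene scaled by median ratio (median ratio 1.005 to 1.006 per tumor, 0 zeros). Whole reads and depth could not be recovered, so no interval that needs depth is given. Of 16 columns, 10 matched a tumor's label by name and 6 did not and were not used. The headers number the libraries group by group, so any order of handling and genotype cannot be told apart.

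Symbols were found for 22899 of 23609 gene IDs (97.0%). Transcript lengths and overlaps came from GENCODE M21 (GRCm38), and promoters from RefSeq (GRCm38.p6), so no coordinates of the mm39 values are given. Genes with a mean of at least 10 were tested as log2(value + 1) with limma (3.58.1, R 4.3.3), variance trend, genotype alone in the model and p-values adjusted after Benjamini-Hochberg over all 21034 genes. Normalized values took the place of a planned count test. For single values an exact permutation test (two-sided, 252 arrangements of the tumors) was used, and relations with the fibroblast score by 100000 permutations. Slopes on that score were fitted in limma and adjusted over all genes, in place of the planned adjustment over the members. The calculations were tested on simulated data.

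Members and lists were chosen with earlier results of these data known. Named were *Resf1*, every TIMP, the 6 MMPs and 6 ADAMTS highest per kilobase, members with an unadjusted p under 0.05, the 5 with the smallest p in each direction, the 5 with the largest SD, the 4 closest to the fibroblast score, those below the mean filter, and 2 genes per pathway list. Other genes, among them the members named with a log2 fold change alone, *Mmp9*, *Mmp11*, markers and overlapping genes, were added after their values were seen.

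The replicate numbers are in the labels, but same-numbered tumors did not deviate together (correlations of -0.156 to 0.149 over 5 pairs), so they were not treated as pairs. As alternatives, each tumor was left out, the number was a block, tumors were weighted, quantile normalization was applied, the variance trend was dropped, and pseudocounts, filters and fibroblast scores were varied. Figures were drawn with matplotlib (3.10.9).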

Additional observations from a re-analysis of the deposited data

Results flagged for a closer look

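Of 78 groups of 5 values that were examined, 5 held a tumor whose distance from its neighbours exceeded Dixon's limit of 0.71 of the group's range, where chance gives about 3.9. Gene trap replicate 3 had *Mmp8* at 47.3 while the rest of its group had 2.59 to 5.47, and it had the highest neutrophil marker score. Wildtype replicate 1 had *Adamts10* at 2215, with 1463 to 1593 in the rest of its group. Gene trap replicate 5 had *Mmp16* at 746, the rest 475 to 541. Gene trap replicate 2, which stood apart across the table, had *Timp4* at 47.5, the rest 26.7 to 31.7. Gene trap replicate 1 had a fibroblast marker score of 1.53, and the rest of the group lay between -0.41 and -0.17.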

How the results depend on the processing

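Under the 18 alternative fits of the genotype comparison no gene passed an adjusted p of 0.05 in limma (0 in each), while between 308 and 692 had an unadjusted p under 0.05. The 2 members at an unadjusted p under 0.05 became 1 with weights per tumor, without the variance trend and with quantile normalization, and 0 to 3 with single tumors left out, with 0 without wildtype replicate 4 and 1 without wildtype replicate 2 or 5 or gene trap replicate 2 or 4. With the replicate number as a block there were 0 members and 426 genes at that limit; 2 of the 10 tumors correlated best with their own number. The log2 fold change of *Resf1* was -0.18 with weights per tumor and -0.22 without the variance trend, both then just above an unadjusted p of 0.05. With tumors left out it was -0.28 to -0.17, and 6 of these 10 fits were above an unadjusted p of 0.05, those without gene trap replicate 2, 4 or 5 or wildtype replicate 1, 2 or 4.

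Of the 27 named members 13 kept the sign of their log2 fold change in all alternatives run, and none passed an adjusted p of 0.05 (0 values). The sign turned with single tumors left out for *Timp1* (-0.14 to 0.22), *Timp2* (-0.27 to 0.0066), *Timp4* (-0.40 to 0.039), *Mmp2* (-0.23 to 0.050), *Mmp14* (-0.0084 to 0.19), *Mmp3* (-0.31 to 0.20), *Mmp16* (-0.18 to 0.11), *Mmp19* (-0.061 to 0.20), *Adamts2* (-0.18 to 0.081), *Adamts12* (-0.20 to 0.13), *Mmp8* (-0.21 to 0.23), *Adamts18* (-0.57 to 0.071), *Mmp13* (-0.50 to 0.15) and *Mmp12* (-0.37 to 0.10). With weights per tumor *Mmp2* was at 0.019, *Mmp13* at 0.024 and *Mmp8* at 0.33. *Mmp8* was at 0.085 with a pseudocount of 10 and at 0.12 with quantile normalization, and *Adamts2* at -0.0095 with quantile normalization. Without a change of sign, single tumors moved several named members by over 1.5 times. Among them were *Adamts3* (-0.22 to -0.05), *Adamts15* (0.07 to 0.21), *Mmp23* (0.06 to 0.26), *Mmp15* (-0.18 to -0.019) and *Adamts10* (0.012 to 0.16). With single tumors left out, the unadjusted limma p was as low as 0.00588 for *Timp3* and 0.00961 for *Adamts17*. It was as low as 0.0249 for *Adamts1*, 0.0361 for *Adamts8*, 0.0376 for *Adamts14*, 0.0476 for *Mmp2* and 0.0483 for *Adamts10*. The cause was not tested.

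The 1 member with an adjusted p under 0.05 for the slope on the fibroblast score, *Mmp3*, passed in every fit with 1 tumor left out, where 1 to 3 members passed; without gene trap replicate 2 there were 3, with *Mmp19* and *Adamts12*. With ranks in place of values there were 0 members and 0 genes. Without the 2 tumors farthest from the median score, an alternative chosen after the data were seen, there were also 0 members and 0 genes. With a score of *Pdgfra*, *Pdgfrb* and *Lum* only, *Adamts12* passed and *Mmp3* did not. The unknown depth, 5 tumors per group and the wide spread of low genes limit what could be detected.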
